A study of Mus musculus with 13 samples.

Results

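The immediate-early response genes are 10 genes that many cells switch on within minutes of a stimulus: Fos, Fosb, Jun, Junb, Egr1, Ier2, Ier3, Atf3, Btg2 and Dusp1. They were taken by gene symbol from the liver arrays, and each had exactly 1 probe set with a single symbol, so 10 of 22180 genes were described. Of these, 9 passed the filter on dim genes (a mean log2 value of at least 3.95 over all arrays), which left 13308 genes for testing. Fosb, with a mean of 3.74, was below it.

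The livers came from male C57Bl/6J mice that began a diet with 60% fat at 6 weeks of age and ate it for 4 weeks to become obese. The 3 groups were then kept for 4 more weeks. The HFD group (4 arrays) stayed on the diet, and the CANA group (4 arrays) ate the same diet with canagliflozin at 25 to 30 mg/kg. The CR group (5 arrays, titled HFD caloric restriction in the labels) was held to the weight of the treated mice by 15 to 30% fewer calories. Canagliflozin inhibits SGLT2, the glucose carrier of the kidney tubule. All groups, the HFD controls included, were thus of 1 strain and sex and had been made obese by the same fat feeding. The labels do not say whether each array was a separate animal, so the p-values speak only of the spread among these 13 arrays. Time of day and fasting state at tissue collection are not given in the sources used here. In bulk liver, fewer cells of a type and less RNA per cell cannot be told apart.

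Immediate-early genes need no new protein for their induction. Kinase cascades and cyclic AMP act on factors that already sit on their promoters, and their messengers decay fast. Fos, Fosb, Jun and Junb encode subunits of the AP-1 transcription factor, Atf3 a related stress-induced factor, and Egr1 a zinc-finger factor. Btg2 is an antiproliferative cofactor of messenger deadenylation, Dusp1 is a phosphatase that switches off MAP kinases, Ier3 acts in survival signalling and Ier2 is a nuclear early response protein. In liver these genes are known to respond to feeding, hormones, stress and handling of the tissue.

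The RefSeq promoter table (GRCm38.p6) held 8 of the 10 members, and the 250 bases before the transcription start were searched on both strands. Egr1 and Ier2 were not analysed here for sequence. Windows of 4 members are shown because they differ in the elements that cyclic AMP and AP-1 act on, and because Jun, Btg2 and Dusp1 were among the members that varied most between arrays. They are chr1:134079156-134079405 (minus strand) for Btg2, chr17:26508473-26508722 (minus strand) for Dusp1, chr12:85473640-85473889 (plus strand) for Fos and chr4:95052223-95052472 (minus strand) for Jun. Capitals mark matches to the motifs described after the sequences, which run 5′ to 3′ and end at the base before the start.
Btg2: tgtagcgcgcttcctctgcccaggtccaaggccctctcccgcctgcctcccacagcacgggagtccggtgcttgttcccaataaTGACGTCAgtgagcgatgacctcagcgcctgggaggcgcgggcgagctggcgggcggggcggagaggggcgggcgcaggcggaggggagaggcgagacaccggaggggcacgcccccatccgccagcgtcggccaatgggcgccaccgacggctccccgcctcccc
Dusp1: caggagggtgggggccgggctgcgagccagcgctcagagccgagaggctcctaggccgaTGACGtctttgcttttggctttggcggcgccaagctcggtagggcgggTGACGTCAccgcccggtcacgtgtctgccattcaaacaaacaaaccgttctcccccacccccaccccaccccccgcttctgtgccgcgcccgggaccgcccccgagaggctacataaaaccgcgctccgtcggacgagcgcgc
Fos: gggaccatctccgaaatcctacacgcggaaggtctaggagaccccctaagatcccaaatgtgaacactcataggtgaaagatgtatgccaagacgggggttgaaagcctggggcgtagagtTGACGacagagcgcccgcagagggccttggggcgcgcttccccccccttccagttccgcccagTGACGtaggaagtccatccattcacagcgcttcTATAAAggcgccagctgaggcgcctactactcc
Jun: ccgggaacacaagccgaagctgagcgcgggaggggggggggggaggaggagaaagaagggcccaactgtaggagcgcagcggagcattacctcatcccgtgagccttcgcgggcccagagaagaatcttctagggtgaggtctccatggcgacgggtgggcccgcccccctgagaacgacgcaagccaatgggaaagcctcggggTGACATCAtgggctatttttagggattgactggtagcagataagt

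The full cyclic AMP response element TGACGTCA was found in 2 of 8 member windows, Btg2 (from -166 to -159, counted from the start) and Dusp1 (from -143 to -136), and in 1.55% of all 32851 windows of the table. The shorter core TGACG, which the full element contains, was in 6 of 8 windows against 17.8% of all. It lay at -129 and -66 (its first base) in Fos, at -60 in Fosb, at -106 in Junb and again at -191 in Dusp1, and in Atf3 its reverse complement began at -7. Jun had no match to it, but had the AP-1 variant TGACATCA from -45 to -38, present in 2.93% of all windows. That motif was added after the Jun window had been read. TATAAA, searched in the gene's direction, was in Fos alone among the 8 (at -33) and in 7.59% of all windows. The consensus AP-1 site TGANTCA, the EGR site GCGTGGGCG and the CArG box of serum response factor had no match in the 8 windows, where all windows held them in 6.75, 0.536 and 1.47%. These matches describe letters in the windows shown and say nothing of binding.

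None of the 9 tested members passed the test in any comparison of groups, and the intervals of several leave room for sizeable differences. In CANA against HFD, where limma called 0.165% of all tested genes at an adjusted p under 0.05 (0.128% higher and 0.0376% lower), 0 of 9 members passed, and 0 of 9 had an unadjusted p under 0.05 against 8.82% of all genes. In CR against HFD the count was 0 of 9, where 0% of all genes passed and 3.74% had an unadjusted p under 0.05. In CANA against CR it was again 0 of 9, where 0.15% of all genes passed (0.0977% higher and 0.0526% lower). There 1 of 9, Btg2, had an unadjusted limma p under 0.05 against 8.43% of all genes. The arrays of the groups overlapped for all 10 members in each comparison, whereas some of all tested genes had none. That share was 4.9% in CANA against HFD (2.13% higher and 2.77% lower), 1.17% in CR against HFD (0.451% and 0.721%) and 2.93% in CANA against CR (1.42% and 1.51%). No exact permutation p of the tested members fell under 0.05 either, where the smallest possible was 0.0286 for 4 arrays against 4 and 0.00794 for 4 against 5.

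The median log2 difference of the 9 tested members was 0.14 in CANA against HFD, with 7 above zero, beside a median of -0.01 over all tested genes. It was -0.05 in CR against HFD, with 4 above zero, beside -0.01. In CANA against CR it was 0.21, with 7 above zero, beside -0.0037. Among all tested genes 46.1, 46.4 and 48.8% were above zero. CANA against HFD and CR against HFD share the HFD arrays. The median in CANA against CR was -0.07 without CANA replicate 3, and that in CANA against HFD was -0.01 without HFD replicate 4 and 0.01 without CANA replicate 3. The median in CR against HFD changed sign in 5 of 27 alternatives.

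**Figure D1:**
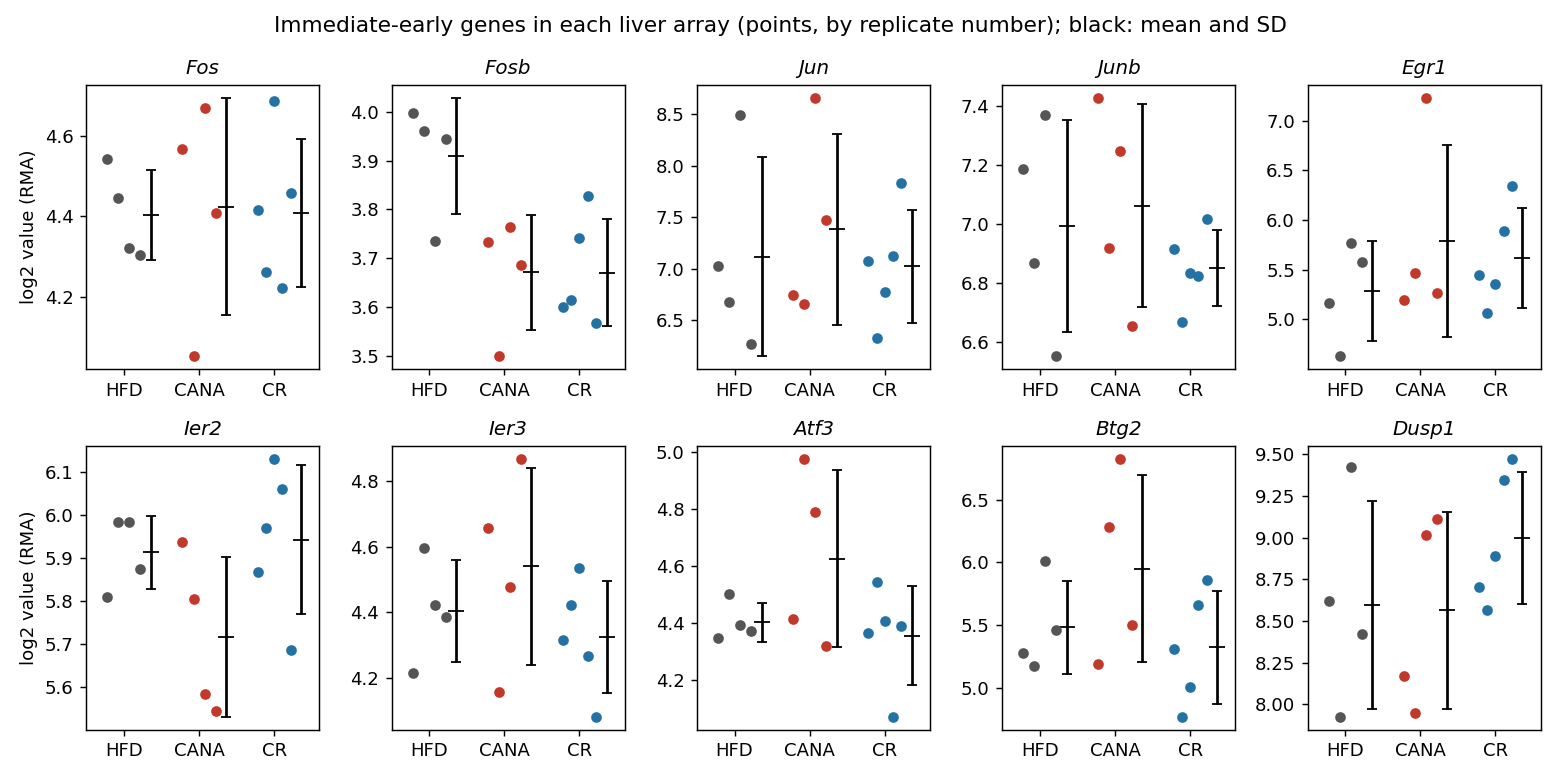
Log2 values (RMA) of the 10 genes in each array of HFD, CANA and CR, points in order of replicate number, with black bars for the mean and SD of each group (n = 4, 4 and 5). The groups overlap in all 10 panels, and Egr1 in CANA has 1 array at 7.23 with the other 3 at 5.46 or lower.

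Among the AP-1 subunits, Fos was dim, not far above the filter, with a mean of 4.41 over all arrays. It read 4.54, 4.45, 4.32 and 4.30 in HFD replicates 1 to 4, 4.57, 4.05, 4.67 and 4.41 in CANA replicates 1 to 4, and 4.42, 4.26, 4.69, 4.22 and 4.46 in CR replicates 1 to 5. CANA replicate 2 was the lowest array and CR replicate 3 the highest, and the groups overlapped fully. Its CANA minus HFD difference was 0.02 (95% interval -0.26 to 0.30, limma adjusted p = 0.984), and its CR minus HFD difference was 0.01 (-0.26 to 0.27).

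Jun was far more variable. Its log2 values were 7.03, 6.68, 8.49 and 6.28 in HFD, 6.75, 6.65, 8.66 and 7.47 in CANA, and 7.07, 6.33, 6.77, 7.12 and 7.83 in CR. The high arrays were HFD replicate 3, CANA replicate 3 and CR replicate 5, 1 in each group, so the spread lay inside the groups. The lowest and highest arrays differed 5.20-fold. The group means were 7.12 ± 0.96, 7.38 ± 0.92 and 7.02 ± 0.55 (SD, n = 4, 4 and 5). CANA exceeded HFD by 0.26 (SE 0.46, 95% interval -0.72 to 1.24, limma adjusted p = 0.937), and the interval leaves room for changes of over 1 log2 unit. This difference was -0.16 without CANA replicate 3 and 0.72 without HFD replicate 3.

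Junb, the partner that often opposes Jun on growth genes, averaged 6.99 ± 0.36 in the 4 HFD arrays, 7.06 ± 0.34 in the 4 CANA arrays and 6.85 ± 0.13 in the 5 CR arrays (SD). HFD spanned 6.55 to 7.37 and CANA 6.65 to 7.43, and the CR arrays lay inside both ranges, between 6.67 and 7.02. Its CANA minus CR difference was 0.21 (SE 0.17, limma adjusted p = 0.782), and ran from 0.09 without CANA replicate 1 to 0.35 without CANA replicate 4. Within serial numbers 1 to 8 the Junb difference was 0.37, and within 9 to 14 it was 0.03.

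Fosb was below the filter and is not among the tested members. Its values were 4.00, 3.96, 3.74 and 3.95 in HFD, 3.73, 3.50, 3.76 and 3.69 in CANA, and 3.60, 3.62, 3.74, 3.83 and 3.57 in CR. Of the HFD arrays, 3 lay above every CANA and CR array and replicate 3 lay among them. In a fit without the filter, Fosb was lower by the same amount in both groups that share these controls, at -0.24 in CANA (95% interval -0.45 to -0.03, unadjusted p = 0.0282, limma adjusted p = 0.602) and -0.24 in CR (-0.44 to -0.04, unadjusted p = 0.0213, limma adjusted p = 0.999). The exact permutation p was 0.0571 and 0.0397. CANA and CR differed by 0.00 (-0.20 to 0.20). How much of this dim signal is background was not tested.

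Atf3, the stress-induced factor that pairs with Jun proteins, was dim like Fos, with a mean of 4.45 over all arrays. Its HFD arrays lay close together at 4.40 ± 0.07, between 4.35 and 4.50. CANA replicates 1 to 4 read 4.41, 4.98, 4.79 and 4.32, for a mean of 4.62 ± 0.31, and CR averaged 4.36 ± 0.17 (SD, n = 4, 4 and 5). Thus 2 of 4 CANA arrays stood above all HFD and CR arrays, and the others did not. The CANA minus HFD difference was 0.22 (SE 0.14, limma adjusted p = 0.701) and the CANA minus CR difference 0.27 (SE 0.13, unadjusted p = 0.0543, limma adjusted p = 0.598). Without CANA replicate 2 these differences were 0.10 and 0.15.

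Egr1 had its highest value in CANA replicate 3. The values were 5.16, 4.63, 5.77 and 5.58 in HFD, 5.19, 5.46, 7.23 and 5.27 in CANA, and 5.44, 5.06, 5.36, 5.89 and 6.34 in CR. Apart from that array, the CANA values lay inside the range of HFD. The lowest and the highest array differed 6.07-fold. The group means rank CANA at 5.79 ± 0.97, CR at 5.62 ± 0.50 and HFD at 5.28 ± 0.50 (SD, n = 4, 5 and 4), with no neighbours apart beyond their spread. CANA was 1.42-fold HFD (log2 difference 0.50, SE 0.39, 95% interval -0.32 to 1.33, limma adjusted p = 0.788). Without CANA replicate 3 the log2 difference was 0.02. CR exceeded HFD by 0.33 (-0.45 to 1.12, limma adjusted p = 0.999), and by 0.12 without HFD replicate 2. CANA minus CR was 0.17 (limma adjusted p = 0.937), and -0.31 without CANA replicate 3.

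**Figure D2:**
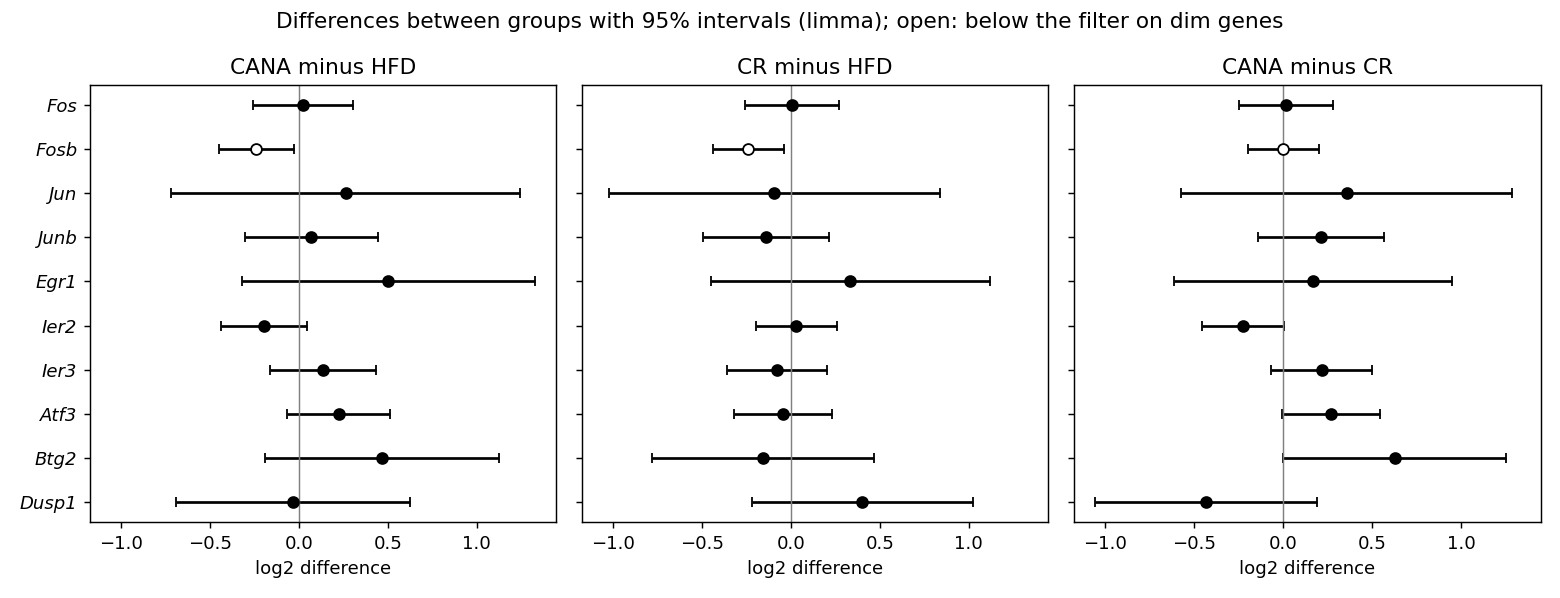
Log2 differences of the 10 genes with 95% intervals from limma in CANA minus HFD, CR minus HFD and CANA minus CR; the open symbol is Fosb, below the filter, from a fit without it. Jun, Egr1, Btg2 and Dusp1 have the wide intervals, and Fos lies at 0.02, 0.01 and 0.02.

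The effectors and feedback regulators followed. Btg2 read 5.28, 5.18, 6.01 and 5.46 in HFD, 5.19, 6.28, 6.83 and 5.50 in CANA, and 5.31, 4.77, 5.01, 5.66 and 5.86 in CR. CANA replicates 2 and 3 stood above every HFD and CR array, whereas CANA replicate 1 lay below the HFD mean. The group means were 5.48 ± 0.37, 5.95 ± 0.74 and 5.32 ± 0.45 (SD, n = 4, 4 and 5). CANA was 1.54-fold CR, with a log2 difference of 0.63 (SE 0.29, 95% interval 0.00 to 1.25, unadjusted p = 0.0495, limma adjusted p = 0.593, exact permutation p = 0.175). This was the widest gap between group means among the members, and it ran from 0.34 without CANA replicate 3 to 0.88 without CANA replicate 1. CANA minus HFD was 0.47 (SE 0.31, limma adjusted p = 0.734), and ran from 0.18 to 0.72 without the same arrays.

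Dusp1, like Ier2, had its highest mean in CR. Its values were 8.62, 7.92, 9.42 and 8.42 in HFD, 8.17, 7.95, 9.02 and 9.11 in CANA, and 8.71, 8.57, 8.89, 9.35 and 9.47 in CR. CR had no array below 8.57, while HFD reached down to 7.92 and CANA to 7.95. The means were 8.60 ± 0.62, 8.56 ± 0.59 and 9.00 ± 0.40 (SD, n = 4, 4 and 5). CR exceeded HFD by 0.40 (SE 0.29, 95% interval -0.22 to 1.02, limma adjusted p = 0.999), and CANA minus CR was -0.43 (SE 0.29, -1.06 to 0.19, limma adjusted p = 0.728). Over the alternative fits the CR minus HFD difference ran from 0.18 without HFD replicate 2 to 0.68 without HFD replicate 3. CANA and HFD differed by -0.03 (-0.69 to 0.62).

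Ier2 had its lowest mean in CANA. HFD replicates read 5.81, 5.98, 5.98 and 5.87, CANA 5.94, 5.80, 5.58 and 5.54, and CR 5.87, 5.97, 6.13, 6.06 and 5.69. CANA replicates 3 and 4 lay below all other arrays, and the remaining CANA arrays did not stand apart. CANA minus CR was -0.23 (SE 0.11, 95% interval -0.45 to 0.00, unadjusted p = 0.0537, limma adjusted p = 0.594) and CANA minus HFD -0.20 (SE 0.11, limma adjusted p = 0.675). Within serial numbers 1 to 8 these were -0.12 and -0.03, and within 9 to 14 they were -0.31 and -0.36.

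Ier3 averaged 4.40 ± 0.16 in the 4 HFD arrays, 4.54 ± 0.30 in the 4 CANA arrays and 4.32 ± 0.17 in the 5 CR arrays (SD). CANA held the highest array, replicate 4 at 4.87, and CR replicate 5 was the lowest of all at 4.08. CANA minus CR was 0.22 (SE 0.13, limma adjusted p = 0.701), and ran from 0.11 without CANA replicate 4 to 0.34 without CANA replicate 2. Within serial numbers 1 to 8 the Ier3 difference was -0.02, and within 9 to 14 it was 0.50.

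The members differed in how far their arrays spread. The SD within groups was 0.81 for Jun, 0.68 for Egr1, 0.54 for Btg2 and 0.53 for Dusp1, on the log2 scale. These values were at or above those of 99.7, 99.5, 99.0 and 98.9% of the tested genes, whose median was 0.17. Junb, at 0.29, exceeded 90.2%, while Fos (0.20), Ier3 (0.21), Atf3 (0.21) and Ier2 (0.16) exceeded between 40.2 and 72.6%. The 4 most variable members were singled out after their values were seen, and what follows describes them.

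The same arrays were high for several of these genes. Jun, Egr1, Btg2 and Dusp1 all stood above their own means in CANA replicate 3, HFD replicate 3 and CR replicate 5, where their mean deviation was 1.17, 0.66 and 0.62. They were all below their means in HFD replicates 1 and 2, CANA replicate 1 and CR replicates 1 and 2, with mean deviations from -0.65 in HFD replicate 2 to -0.13 in CR replicate 1. The other 5 tested members had mean deviations between -0.13 and 0.18 over all arrays. The high arrays came from all 3 groups.

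**Figure D3:**
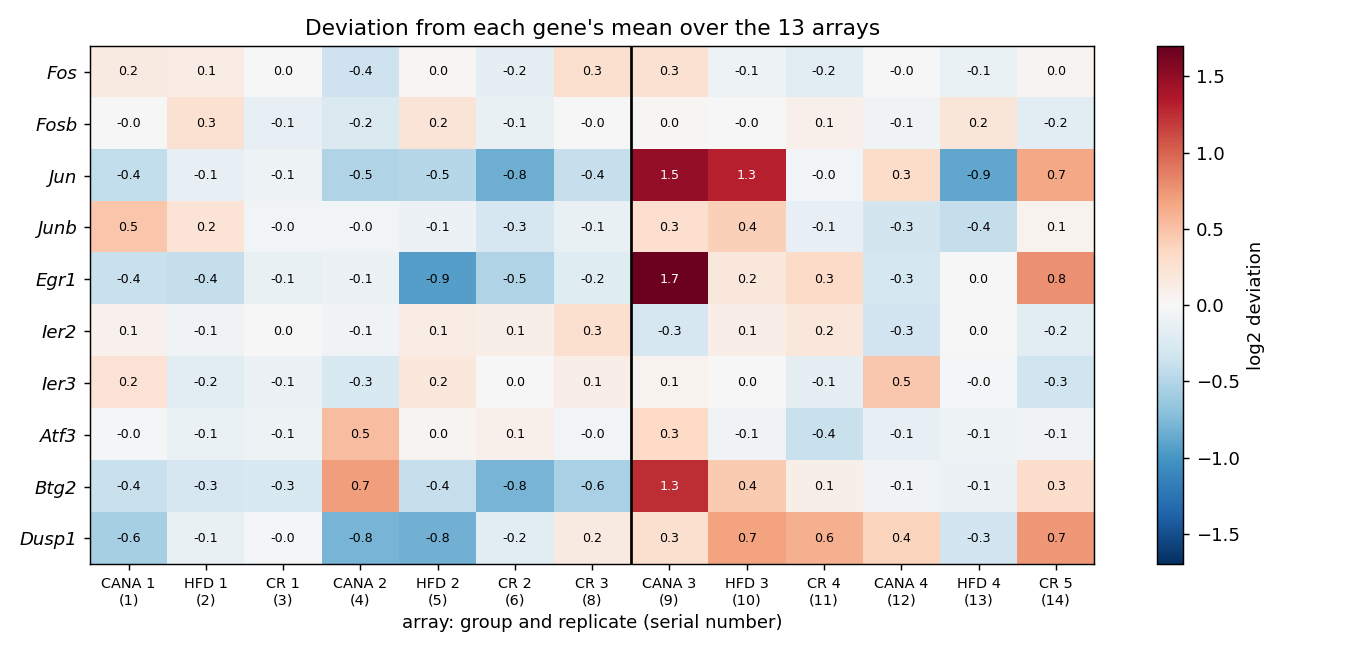
Log2 deviation of each gene from its mean over the 13 arrays, with arrays in order of the serial number in their labels (in brackets) and a line between numbers 1 to 8 and 9 to 14. Jun is 1.49 above its mean in CANA replicate 3 and 1.33 in HFD replicate 3, and Egr1 is 1.66 above in CANA replicate 3.

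Across the 13 arrays, 36 pairs of tested members were correlated, with permutation p-values from 100000 resamples and Benjamini-Hochberg adjustment over the pairs. Egr1 and Btg2 had a Pearson r of 0.81 (permutation p = 0.00154, adjusted p = 0.0554) and a Spearman rho of 0.82 (permutation p = 0.0010, adjusted p = 0.0180). Jun and Dusp1 had r = 0.69 (permutation p = 0.00929, adjusted p = 0.0836) and rho = 0.83 (permutation p = 0.00087, adjusted p = 0.0180). These 2 pairs passed by rank, and 0 of 36 passed by Pearson's r, where 6 had an unadjusted permutation p under 0.05.

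Jun with Egr1 (r = 0.74) and with Btg2 (r = 0.72) did not pass (permutation adjusted p = 0.0791 each). Without the 2 arrays farthest from the median of the first gene, Egr1 with Btg2 had r = 0.59, Jun with Dusp1 r = 0.72, Jun with Egr1 r = 0.56 and Jun with Btg2 r = 0.39. With group means removed, r was 0.88 for Egr1 with Btg2 and 0.84 for Jun with Dusp1. Within serial numbers 1 to 8 (n = 7) these 2 pairs had r = 0.44 and 0.30, and within 9 to 14 (n = 6) r = 0.91 and 0.61. The 30 pairs outside the 4 genes ranged from -0.55 to 0.57, with a median of -0.06. Fos with Jun, its dimer partner, had r = 0.30.

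**Figure D4:**
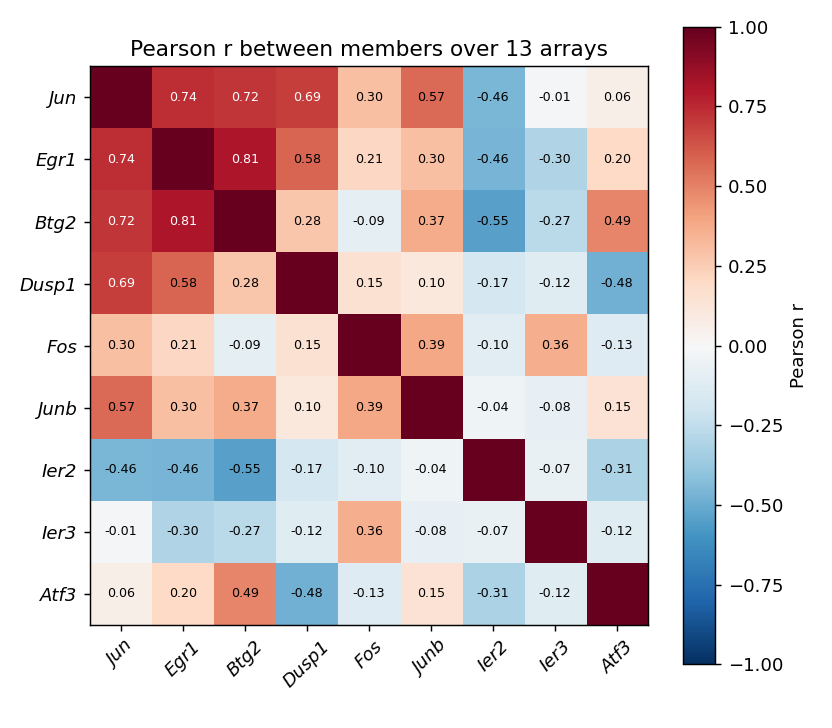
Pearson r between the 9 tested genes over the 13 arrays, with Jun, Egr1, Btg2 and Dusp1 first. The values among these 4 run from 0.28 for Btg2 with Dusp1 to 0.81 for Egr1 with Btg2, and Btg2 with Ier2 is lowest at -0.55.

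The members were also compared between low and high serial numbers in the array labels, and none passed the adjusted test. In the 7 arrays numbered 1 to 8 Dusp1 averaged 8.40 ± 0.39, and in the 6 numbered 9 to 14 it averaged 9.13 ± 0.39 (SD). With group in the model the difference was 0.78 (SE 0.15, unadjusted p = 1.04e-04, limma adjusted p = 0.0510). Jun averaged 6.76 ± 0.25 and 7.64 ± 0.89 in the same sets (difference 0.87, SE 0.30, unadjusted p = 0.0105, limma adjusted p = 0.216). Egr1 averaged 5.19 ± 0.29 and 6.01 ± 0.69 (0.84, SE 0.23, unadjusted p = 0.00210, limma adjusted p = 0.124), and Btg2 5.29 ± 0.47 and 5.89 ± 0.51 (0.57, SE 0.20, unadjusted p = 0.0141, limma adjusted p = 0.243). Thus 4 of 9 had an unadjusted p under 0.05 between the sets, against 13.3% of all tested genes, and 0 of 9 passed the adjustment against 0.105%. These 4 are the most variable members, singled out after their values were seen. The slope on the number itself called 0 of 9, against 0.376% of all genes (lowest limma adjusted p = 0.178, for Dusp1). Among the members, its unadjusted limma p was under 0.05 only for Dusp1 (0.00436) and Egr1 (0.0283), against 11.9% of all genes. Btg2 (0.0701) and Jun (0.105) did not reach it, so the slope gave weaker results than the split into sets.

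Fos, Junb, Ier2, Ier3 and Atf3 differed by -0.14 to -0.01 between the same sets. Each group had arrays in both sets, and HFD and CANA had 2 in each. The labels do not say what the number stands for, and the cause of the differences between the sets was not tested. With the set as a term in the fit, no member was called in any comparison.

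The wider program of early response genes was described with a list of 50 genes without the members, of which 47 were tested. In CANA against HFD, 32 of 47 were above zero (median 0.11) and 1 was called, Sik1. Of all tested genes, 46.1% were above zero there and 0.165% were called. In CR against HFD 32 of 47 were also above zero (median 0.08) with 0 called, and in CANA against CR 28 of 47 (median 0.02) with 0 called. An unadjusted limma p under 0.05 was found for 10, 1 and 6 of the 47, against 8.82, 3.74 and 8.43% of all genes. The list averaged -0.16 to -0.03 around its gene means in the HFD arrays, -0.02 to 0.31 in CANA with replicate 3 highest, and -0.09 to 0.05 in CR.

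Sik1, a salt-inducible kinase that cyclic AMP induces, rose from 6.90 ± 0.12 in HFD to 8.31 ± 0.60 in CANA, which is 2.65-fold (log2 difference 1.41, SE 0.23, limma adjusted p = 0.0326, n = 4 each). CR averaged 7.24 ± 0.34, and CR minus HFD was 0.34 (limma adjusted p = 0.999). The Sik1 call was kept in 6 of 13 fits that left out 1 array, and lost without HFD replicates 1 to 4 and without CANA replicates 2 to 4 (highest limma adjusted p = 0.0939, without HFD replicate 3). Within serial numbers 1 to 8 the difference was 0.92 (limma adjusted p = 0.388), and within 9 to 14 it was 1.90 (limma adjusted p = 0.0667). The 4 smallest p-values of the list in this comparison also held Gadd45g, a growth arrest and stress gene (1.63, SE 0.43, limma adjusted p = 0.185). They included Cebpb and Cebpd, factors of the acute phase and of gluconeogenesis, at 0.41 (limma adjusted p = 0.166) and 0.58 (limma adjusted p = 0.192). Cebpd, like Fos, was dim in HFD, at 4.41 ± 0.25.

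**Figure D5:**
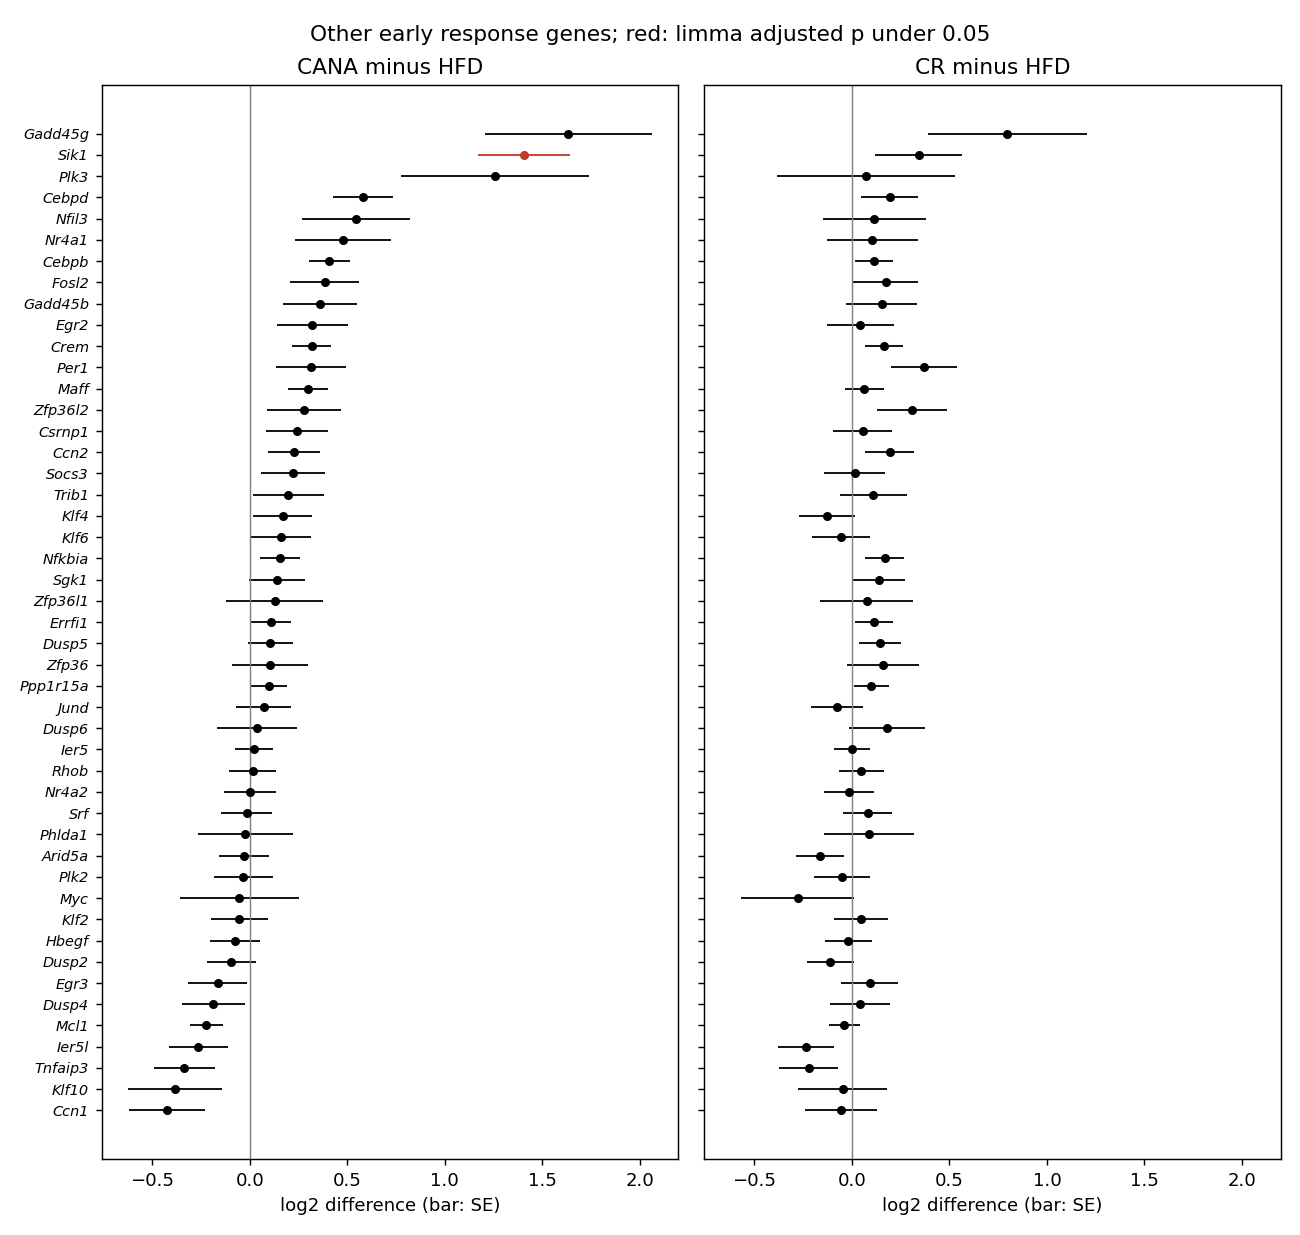
Log2 differences with SE of the 47 tested early response genes outside the 10, in CANA minus HFD and CR minus HFD, in order of the first; both share the HFD arrays. Sik1 (red, 1.41) is the gene called in CANA, no gene is called in CR, and Gadd45g at 1.63 has the wide SE of 0.43.

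Most partners of AP-1 and related leucine-zipper factors were above zero, and none was called. This list shares Crem, Maff, Fosl2, Fosl1 and Jund with the list of early response genes. In CANA against HFD 16 of 18 tested genes were above zero (median 0.12), and in CR against HFD 15 of 18 (median 0.08), with 0 called in either. The shares above zero over all tested genes were 46.1 and 46.4%. Crem, which yields a cyclic AMP-inducible repressor, was at 0.32 in CANA against HFD (SE 0.10, limma adjusted p = 0.289). It was the 1 gene of these 18 whose arrays did not overlap, where 4.9% of all tested genes had no overlap. Maff, a small Maf factor, was at 0.30 (limma adjusted p = 0.373) and the Fos relative Fosl2 at 0.38 (SE 0.18, limma adjusted p = 0.545). Upstream kinases and promoter factors were split, with 13 of 24 above zero in CANA against HFD (median 0.03) and 12 of 24 in CR against HFD (median 0.00), and 0 called. Map2k6, a kinase that activates p38, was at -0.51 (SE 0.21, limma adjusted p = 0.480) and -0.65 in CANA against CR (SE 0.20, limma adjusted p = 0.315). Mrtfa, a coactivator of serum response factor, was at 0.39 in CANA against HFD (limma adjusted p = 0.365).

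Feedback phosphatases and messenger decay factors, which end the early response as Dusp1 and Btg2 do, had 13 of 24 above zero in CANA against HFD and 15 of 24 in CR against HFD, with 0 called in each. Btg1, the close relative of Btg2, was at 0.26 in CANA (limma adjusted p = 0.624) and 0.24 in CR (limma adjusted p = 0.999). Heat shock and tissue handling genes were at a median of -0.02 in CANA against HFD (7 of 14 above zero) and -0.14 in CR against HFD (4 of 14), with 0 called. Hmox1, the heme oxygenase, was at 0.74 in CANA against HFD (SE 0.19, limma adjusted p = 0.171). Other genes of this list went both ways there, from -0.44 for Hsph1 to 0.93 for Mt2. At an unadjusted limma p under 0.05, 1 gene of the list was higher and 2 were lower. Clock genes had 8 of 15 above zero in CANA against HFD and 10 of 15 in CR against HFD, with 0 called, and Per3 was at -0.40 in CANA against HFD (limma adjusted p = 0.245). In CANA against CR 3 of 15 clock genes were above zero (median -0.13), where 48.8% of all genes were. Of these 15, 0 were called and 4 were lower at an unadjusted limma p under 0.05. In the same comparison the leucine-zipper factors had 13 of 18 above zero, the kinases and promoter factors 13 of 24, the feedback genes 11 of 24 and the heat shock genes 7 of 14, with 0 called in each list.

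Of 15 glucocorticoid and fasting-linked genes, 12 were above zero in CANA against HFD, 14 in CR against HFD and 10 in CANA against CR. The shares over all tested genes were 46.1, 46.4 and 48.8%. In CANA against HFD 1 of 15 was called, against 0.165% of all genes, and in the other 2 comparisons 0. In CANA against HFD 6 of 15 were higher at an unadjusted limma p under 0.05 and 0 lower, against 8.82% of all genes. The arrays of 5 of 15 did not overlap there, against 4.9%. This list was chosen with earlier results of these data known. The gene called in CANA was Igfbp1, a secreted binding protein of insulin-like growth factors that insulin represses in liver (2.59, SE 0.46, limma adjusted p = 0.0383). Its call was kept in 6 of 13 fits that left out 1 array, and lost without HFD replicates 1 to 4 and without CANA replicates 2 to 4 (highest limma adjusted p = 0.123). This list also varied with the members: its mean deviation was 0.60 in CANA replicate 3, the highest of all arrays, and 0.26 in CR replicate 5, but -0.09 in HFD replicate 3. In the other arrays it ran from -0.48 in HFD replicate 1 to 0.32 in CR replicate 4. Its part in the member differences was not tested.

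Cell type markers were read in the same arrays. The average deviation of the 10 hepatocyte markers from their gene means lay between -0.07 and 0.06 over the arrays. In CANA against HFD 5 of these 10 were above zero and 5 below, with a median of 0.0025. The highest of them was Tat, at 0.43 (SE 0.14, limma adjusted p = 0.286). Tat, a glucocorticoid-induced enzyme of tyrosine breakdown, is also on the glucocorticoid list. Albumin (Alb) was at 14.02 ± 0.08, 13.97 ± 0.05 and 14.03 ± 0.02 in HFD, CANA and CR (SD, n = 4, 4 and 5). The 12 Kupffer cell and macrophage markers averaged -0.52 to 0.35 in HFD, -0.18 to 0.31 in CANA and -0.63 to 0.16 in CR. Their lowest arrays, CR replicate 5 at -0.63 and HFD replicate 3 at -0.52, were among those with high Jun and Dusp1, and CANA replicate 3 was at 0.17. Endothelial markers spanned -0.19 to 0.25 and stellate markers -0.26 to 0.18 over all arrays. In CANA against HFD, CR against HFD and CANA against CR, 1, 6 and 2 of 10 endothelial markers were above zero. For stellate markers these counts were 5, 5 and 6 of 10, and for Kupffer cell and macrophage markers 9, 3 and 10 of 12. Of all tested genes, 46.1, 46.4 and 48.8% were above zero. Neutrophil and monocyte, lymphocyte and cholangiocyte lists had only 3, 4 and 3 tested genes, and no gene of the red blood cell list was tested. No marker of these lists was called in any comparison, and the part of cell makeup in the member values was not tested.

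Genes were ranked by Pearson r over the 13 arrays with the mean of the 9 tested members' centred values. This mean followed some members far more than others. Its r was 0.95 with Jun, 0.89 with Egr1, 0.81 with Btg2, 0.66 with Dusp1 and 0.55 with Junb. With Fos it was 0.32, with Atf3 0.16, with Ier3 -0.09 and with Ier2 -0.44. Among tested genes with an established symbol the highest were Zbtb46, a zinc-finger factor (r = 0.86), Trib1, a pseudokinase of liver lipid control and itself on the list of early response genes (0.86), and the peroxisomal thioesterase Acot3 (0.85). The phosphatase Dusp3 (0.85), Dnmbp (0.83), the stress gene Gadd45b (0.80), Misp (0.80) and Urad, an enzyme of urate breakdown (0.78), followed. Lowest were Snapc3 (-0.88), Tmed10 (-0.88), the ribosomal protein gene Rps6 (-0.87) and Slfn8 (-0.86). These 12 genes are the extremes of a ranking drawn from 13308 tested genes over 13 arrays. How high r would run by chance in such a ranking was not tested. The median r of the 8 most alike genes was 0.84, and 0.72 without CANA replicate 3. None of these 12 genes was called in any comparison, with a lowest limma adjusted p of 0.415 for Misp in CANA against HFD.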

How the data were processed

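Affymetrix mouse gene arrays measured 250 ng of liver RNA each, labelled with the WT Plus kit chemistry per the labels. The deposited log2 values (41345 probe sets, 13 arrays) were computed by the authors in Expression Console by RMA, the robust multi-array average, per the submitters' processing notes; versions and genome build are not given in the sources used here. RMA levels array distributions (medians 4.07 to 4.13; arrays correlated at 0.986 to 0.992 across genes), and no read depth applies; the number of arrays limits precision.

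Probe sets with exactly 1 symbol (23521; 23328 matched to RefSeq by Entrez identifier) were kept, those with several (1814) or none (16010) were not, and the brightest per gene was taken. Genes below the 40th percentile of the mean were left out. Comparisons used limma 3.58.1 (R 4.3.3), with 1 fit to all 13 arrays (10 residual and 5.71 prior degrees of freedom), two-sided, Benjamini-Hochberg over all tested genes, called at an adjusted p under 0.05. Exact permutation tests were two-sided. The fit was tested on simulated data with known changes and independent noise in each gene and array. These held no effect of serial number or other shift shared by arrays, so they cannot speak of such shifts here. Members, gene lists and the rule for named genes (all members, called genes and the 4 smallest p of each list, the 8 most and 4 least alike genes) were chosen with earlier results of these data known.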

Additional observations from a re-analysis of the deposited data

Results flagged for a closer look

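Of 30 sets of values (10 genes in 3 groups), 1 had an array far from the others. Egr1 in CANA replicate 3 was at 7.23, while the other 3 CANA arrays lay between 5.19 and 5.46. Its gap to the nearest array was 0.867 of the range of the group, above Dixon's critical value of 0.829 for 4 samples. Chance marks about 1 in 20 groups.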

How the results depend on the processing

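The count of called members was 0 in CANA against HFD, CR against HFD and CANA against CR under each of 28 alternatives (other filters, normalization, variance models, weights, threshold, serial-number terms and sets, each array left out), with lowest limma adjusted p of 0.440, 0.858 and 0.328. The median difference in CANA against CR, 0.21, was -0.0176 within serial numbers 1 to 8, and ran from -0.0659 (without CANA replicate 3) to 0.329 when each array was left out. The median in CANA against HFD, 0.14, ran from -0.0120 (without HFD replicate 4) to 0.219 (without HFD replicate 3). That in CR against HFD, -0.05, ran from -0.0663 to 0.0233 without each array and changed sign in 5 of 27 alternatives. The median r of the most alike genes ran from 0.72 to 0.86 without each array in turn. The cause was not tested. The sign of 4, 6 and 4 of 9 members turned in at least 1 alternative in the 3 comparisons. With the replicate block the medians were 0.14, -0.02 and 0.25 and no member was called. Same-numbered arrays correlated at -0.15 to 0.30 in their deviations, and in most cases the same-numbered array was the best partner. The labels do not say that the numbers pair animals, so the main fit left them unpaired. Whether they do was not settled. Low signal limits Fosb, Fos, Ier3 and Atf3. Each member had 1 probe set, so averaging the probe sets of a gene, 1 of the 28 alternatives, could not change a member's difference. Serial-slope, likeness and other named-gene alternatives were chosen after seeing the data.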
